A study of Homo sapiens with 28 samples.

Results

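The ATR checkpoint arm was followed through 10 genes, chosen by name with earlier results of these data known. They stand for the sensor kinase, the 9-1-1 clamp, its loader, the mediators and the effector kinases of one signalling route. They were ATR, ATRIP, CHEK1, RAD9A, HUS1, RAD1, RAD17, TOPBP1, CLSPN and PKMYT1. All 10 were found among the 19050 genes of a pooled CRISPR knockout screen, where 58 of 108368 gene-targeting guides were directed at them, 6 guides for 8 of the genes and 5 each for RAD9A and RAD17. All 10 were also found among the 25807 symbols of an RNA-seq table, and all 10 were among the 15391 that passed its filter on low counts.

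Both experiments used the U2OS line, derived from a human osteosarcoma. The screen compared guide counts in genomic DNA of p53 wild-type (WT) U2OS and of a p53 knockout (KO) derivative, both carrying the pooled guide library, at the start of the assay (T0, no drug), after 96 h in DMSO (the solvent control, called untreated in the sample titles), and after 96 h in 5 µM etoposide, a topoisomerase II poison that leaves DNA double-strand breaks. Each of these 6 groups had 3 libraries, lettered A, B and C. For the RNA, recipient U2OS cells that were p53 WT in every library were taken at T0 or after 8 h in medium conditioned by other cells: WT or KO cells given DMSO, or WT or KO cells given 31.6 µM etoposide. Each of these 5 groups had 2 libraries, A and B. In the RNA results WT and KO therefore name the cells that conditioned the medium. How the knockout line was made, and whether it is 1 clone, is not given in the sources used here.

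ATR is the kinase that answers replication stress. It is brought by its partner ATRIP to single-stranded DNA coated with the protein RPA, while the loader RAD17, working with small RFC subunits, places the ring of RAD9A, HUS1 and RAD1 (the 9-1-1 clamp) at the junction with double-stranded DNA. The tail of RAD9A recruits TOPBP1, which activates ATR, and claspin (CLSPN) then presents CHK1 (CHEK1) to ATR for phosphorylation. CHK1 restrains the CDC25 phosphatases, and PKMYT1, a membrane-bound relative of WEE1, places an inhibitory phosphate on CDK1, so that both keep damaged or incompletely replicated cells out of mitosis.

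Screen libraries held 30437296 to 48230735 counts and RNA libraries 16825669 to 20290764. A guide of the 10 genes had between 59 and 1282 counts in a library, and their transcripts had between 236 and 2770. The labels do not state whether the libraries within a group are independent cultures, and the p-values therefore measure only the spread between these libraries. The screen counts guides, and the RNA recipients were all p53 WT, so the knockout itself was not checked here. The RNA libraries had the collagen COL1A1 at a mean of 8560 CPM (counts scaled to the same library total), VIM at 2260 and RUNX2, a bone lineage factor, at 32.5, while COL1A2 was at 0.756 and TWIST1 was listed at 0. The 7 markers of blood and endothelial cells had means of at most 0.665 CPM, with HBB listed at 0, and the 4 epithelial markers at most 4.84.

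RAD9A and HUS1 of the clamp were the genes of the 10 whose response to etoposide differed between the genotypes. Their guides rose in etoposide over DMSO in p53 WT cells. In p53 KO cells those of HUS1 fell, and those of RAD9A were at a lower level in every etoposide library without passing the test. The difference between the genotypes, that is the log2 change with etoposide in KO cells minus that in WT cells, was −0.58 for RAD9A (SE 0.101, adjusted p = 0.000665) and −0.55 for HUS1 (SE 0.0988, adjusted p = 0.00126), by edgeR's quasi-likelihood test on the summed guides of each gene. Only 10 of 19050 genes were called in this comparison at an adjusted p of 0.05, 5 in each direction. Among the genes called lower, which were 0.0262% of all genes tested, 2 were clamp genes, and by p-value RAD9A ranked 2 and HUS1 ranked 3 of all genes. A guide's count stands for the share of cells that carry it, so loss of cells and fewer divisions cannot be told apart. With limma on the median guide of each gene in place of the sum, neither was called (RAD9A −0.21, adjusted p = 0.774; HUS1 −0.21, adjusted p = 0.747), and that test called 0 of all genes.

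For RAD9A, the clamp subunit that binds TOPBP1, summed guides in WT cells were at 32.6, 34.2 and 34.1 CPM in T0 libraries A, B and C, at 23.2, 22.0 and 24.7 in DMSO, and at 31.8, 30.1 and 30.4 in etoposide. In KO cells they were at 41.1, 37.2 and 32.2 CPM at T0, at 28.2, 31.6 and 30.1 in DMSO, and at 25.5, 26.6 and 27.0 in etoposide. In WT cells the 3 DMSO libraries were the lowest, and the etoposide libraries lay just under those of T0. In KO cells the order was T0, DMSO, etoposide from high to low, and no DMSO library overlapped an etoposide library in either genotype.

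The log2 change of RAD9A from T0 to DMSO was −0.53 in WT cells (SE 0.0705, adjusted p = 8.3e-09) and −0.29 in KO cells (SE 0.0687, adjusted p = 0.00297). With etoposide against DMSO it was 0.40 in WT cells (SE 0.071, adjusted p = 5.07e-05). In KO cells it was −0.19 (SE 0.0713, adjusted p = 0.13), which did not pass. Growth and etoposide comparisons share the DMSO libraries, so a low DMSO value lowers one and raises the other, and the comparison with T0 does not contain them. Against T0, RAD9A in etoposide was at −0.13 in WT cells (adjusted p = 0.624) and at −0.48 in KO cells (SE 0.0703, adjusted p = 1.9e-06). Leaving out each of the 12 DMSO and etoposide libraries in turn kept the genotype difference called, between −0.63 and −0.55, but the fall in KO cells from T0 to DMSO was not called without T0 library A (−0.21, adjusted p = 0.135).

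HUS1 encodes a second subunit of the ring. Its summed guides in WT cells were at 32.6, 30.4 and 29.1 CPM at T0, at 26.6, 24.9 and 26.3 in DMSO, and at 31.5, 32.9 and 30.3 in etoposide. In KO cells they were at 34.2, 33.8 and 33.1 CPM at T0, at 32.8, 32.1 and 27.9 in DMSO, and at 24.97, 24.5 and 27.6 in etoposide. In WT cells etoposide and T0 overlapped and DMSO lay below both. In KO cells etoposide lay below both, with DMSO library C, at 27.9, closest to it.

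HUS1 rose in etoposide against DMSO in WT cells (0.28, SE 0.0693, adjusted p = 0.00738) and fell in KO cells (−0.27, SE 0.0704, adjusted p = 0.0125). Against T0 it was at 0.04 in WT etoposide (adjusted p = 0.916) and at −0.39 in KO etoposide (SE 0.0698, adjusted p = 0.00015). From T0 to DMSO it fell in WT cells (−0.24, SE 0.0693, adjusted p = 0.0169) and was at −0.12 in KO cells (adjusted p = 0.384). The genotype difference stayed called without any 1 of the 12 libraries (−0.62 to −0.51). The separate calls were less firm. The WT etoposide call was lost without etoposide library B (adjusted p = 0.0906) or DMSO library B (0.0593), the KO call without DMSO library A (0.0914) or B (0.0707) or etoposide library A (0.0753) or B (0.088), and the WT growth call without T0 library A (0.145) or DMSO library B (0.0838).

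RAD1, the remaining ring subunit, moved by smaller steps. Its summed guides in WT cells were at 78.8, 76.9 and 78.8 CPM at T0, at 75.0, 70.8 and 69.8 in DMSO, and at 79.2, 75.2 and 78.5 in etoposide. In KO cells they were at 69.5, 73.9 and 76.8, at 70.3, 69.3 and 69.6, and at 64.4, 66.0 and 62.6 in the same order of groups. DMSO and etoposide did not overlap in either genotype. The change with etoposide was 0.11 in WT cells (SE 0.0446, adjusted p = 0.228) and −0.12 in KO cells (SE 0.0456, adjusted p = 0.139), and their difference was −0.23 (SE 0.0638, adjusted p = 0.148), so none of these passed, although scaling to non-targeting guides called the WT change (0.15, adjusted p = 0.0309). The fall from T0 to etoposide in KO cells did pass (−0.19, SE 0.0454, adjusted p = 0.00979), though not without T0 library B (0.0683), T0 library C (0.145) or etoposide library C (0.0873).

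**Figure D1:**
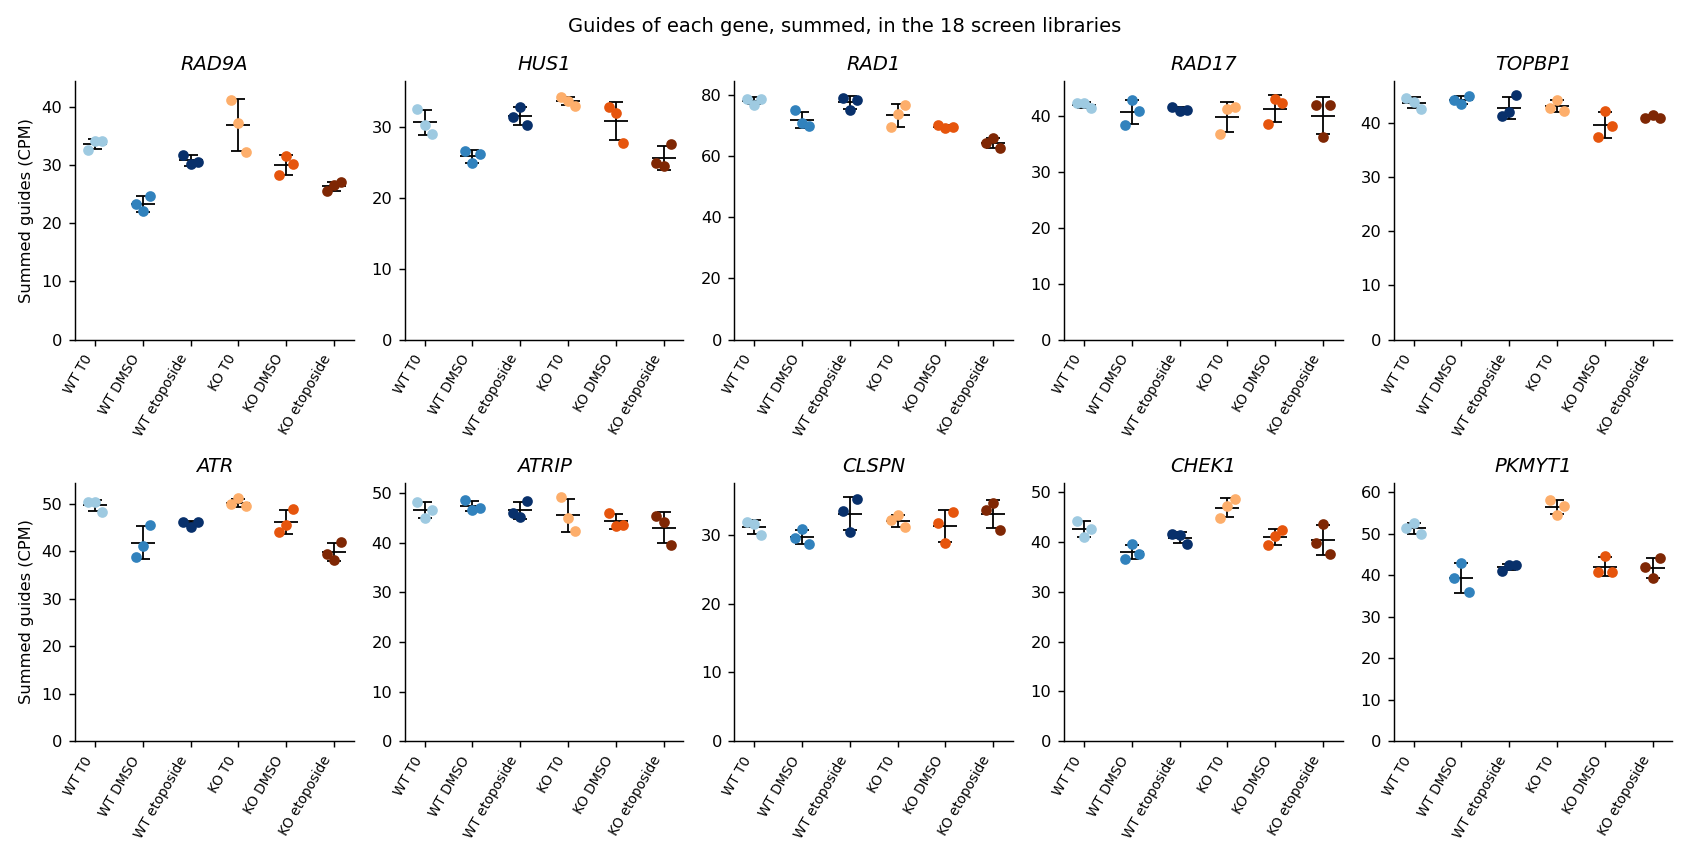
Summed guides of each of the 10 genes in CPM (vertical axis, from 0) in the 18 screen libraries, by group; points are libraries, bars the mean and SD of 3 libraries. For RAD9A and HUS1 the WT etoposide libraries lie above WT DMSO, whereas the KO etoposide libraries lie below KO DMSO.

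The guides of a gene did not all move alike. For RAD9A, the change with etoposide in WT cells ran from 0.01 (guide HGLibB_40056) to 1.16 (guide HGLibA_40107), and all 5 guides were positive. Guide HGLibA_40107 was at 1.63, 2.13 and 2.05 CPM in the WT DMSO libraries and at 4.12, 4.61 and 4.22 in WT etoposide, close to its 4.22, 4.97 and 4.51 at T0. It was the single guide called with etoposide in WT cells among the 58 (adjusted p = 0.000464), where 0.341% of all guides were called higher. In KO cells the same guide was at 2.01, 2.79 and 2.20 CPM in DMSO and 2.20, 2.71 and 2.49 in etoposide. These KO groups overlapped. The genotype difference of this guide alone was −1.09 (SE 0.294, adjusted p = 0.223 over all guides).

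The guide of RAD9A with the lowest value in KO cells was HGLibA_40108, at 1.90, 4.52 and 2.79 CPM in DMSO and at 1.74, 2.25 and 2.71 in etoposide. These groups overlapped, and DMSO library B stood above the other 5 libraries. Its change in KO cells was −0.47 (SE 0.23, adjusted p = 0.387), and its genotype difference was −1.36 (SE 0.326, adjusted p = 0.181), both with that library included. All 5 guides of RAD9A had a negative genotype difference, although 3 of the 5 were lower in KO etoposide. For HUS1, 5 of 6 guides were higher in WT cells, from −0.01 (HGLibB_22395) to 0.50 (HGLibA_22424). In KO cells 5 of 6 were lower, from −0.62 (HGLibA_22424) to 0.03 (HGLibB_22395), so the same 2 guides marked both ends. For RAD1, 4 of 6 guides were higher in WT cells and 5 of 6 were lower in KO cells. No guide of the 10 genes was called with etoposide in KO cells, where 0.841% of all guides were called in either direction. Of the 58, 11 had an unadjusted p under 0.05 in that edgeR fit, and without KO DMSO library C 1 guide was called.

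**Figure D2:**
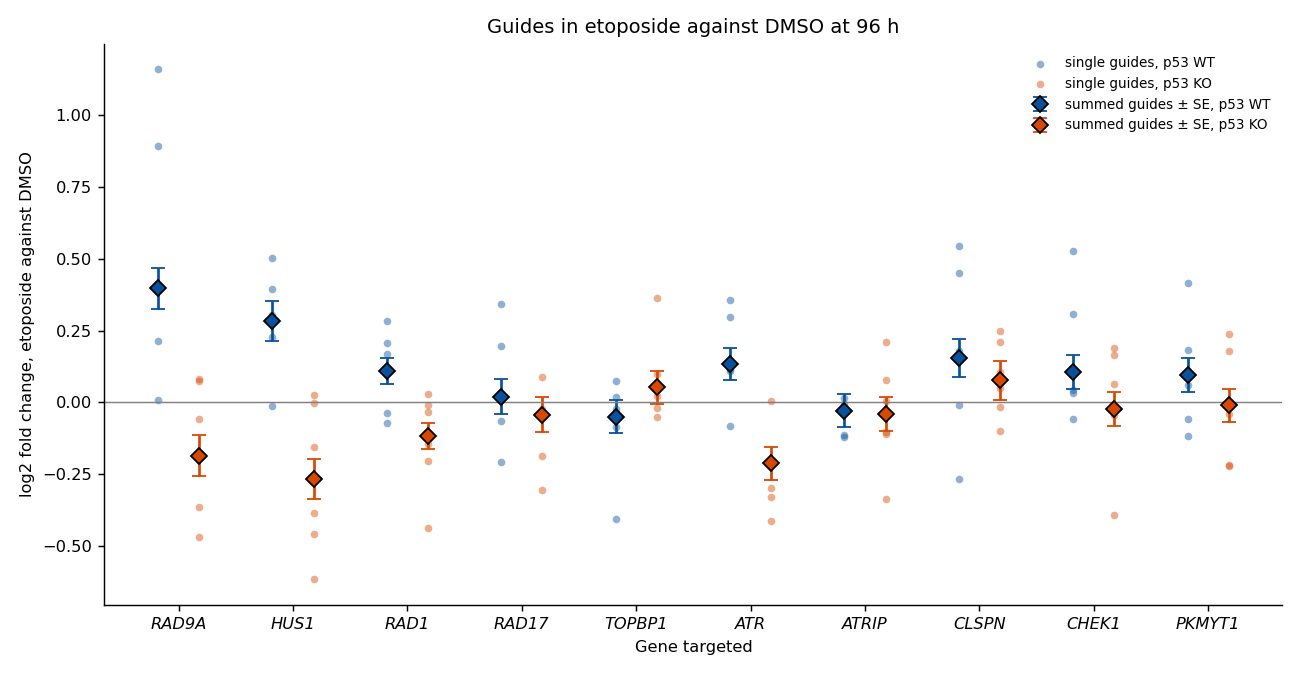
Log2 fold change of guides in etoposide against DMSO at 96 h (vertical axis) for each targeted gene, in p53 WT and p53 KO cells; dots are single guides, diamonds the summed guides with their SE. Diamonds lie above 0 in WT and below 0 in KO cells for RAD9A (0.40 and −0.19), HUS1, RAD1 and ATR. The signs are the same for CHEK1 (0.11 and −0.02), PKMYT1 (0.10 and −0.01) and RAD17 (0.02 and −0.04), none of which was called in either genotype.

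Neither RAD17 of the clamp loader nor the ATR activator TOPBP1 was called in any of the 9 screen comparisons by the main fit. Scaling to non-targeting guides called TOPBP1 and also ATR in KO growth, where it called 14 of all genes higher and 1572 lower. RAD17, the loader's own large subunit, ran from −0.07 (T0, KO against WT) to 0.10 (growth, KO minus WT) on the log2 scale, and its libraries overlapped between DMSO and etoposide in both genotypes. With etoposide it was at 0.02 in WT cells (SE 0.0606, adjusted p = 0.935) and at −0.04 in KO cells (SE 0.0613, adjusted p = 0.785). TOPBP1, which binds RAD9A and switches ATR on, was at −0.05 in WT cells (SE 0.057, adjusted p = 0.785) and at 0.05 in KO cells (SE 0.0581, adjusted p = 0.707). The genotype difference of TOPBP1 was 0.10 (SE 0.0814, adjusted p = 0.703), the 1 positive value among the 10 genes, and all 6 guides were positive.

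ATR guides were called lower in 3 comparisons and those of its partner ATRIP in none. ATR guides in WT cells were at 50.3, 50.3 and 48.2 CPM at T0, at 38.6, 41.0 and 45.5 in DMSO, and at 46.1, 45.1 and 46.2 in etoposide. In KO cells they were at 49.8, 51.1 and 49.5 at T0, at 43.9, 45.4 and 48.9 in DMSO, and at 39.3, 38.2 and 41.9 in etoposide. DMSO and etoposide overlapped in WT cells, through DMSO library C, and did not overlap in KO cells.

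ATR guides fell from T0 to DMSO in WT cells (−0.25, SE 0.0564, adjusted p = 0.000975) and fell with etoposide in KO cells (−0.21, SE 0.0575, adjusted p = 0.0152), where 5 of 6 guides were lower. The latter call was lost without etoposide library A (adjusted p = 0.0688), etoposide library B (0.108) or DMSO library C (0.131), and when only the groups compared were fitted (0.0523). From T0 to etoposide ATR fell in KO cells (−0.34, SE 0.0571, adjusted p = 5.47e-05). With etoposide in WT cells ATR was at 0.13 (SE 0.0567, adjusted p = 0.26). Its genotype difference was −0.35 (SE 0.0808, adjusted p = 0.051), just outside the threshold, and 5 of 6 guides were negative. That value did pass under 4 of the 7 other settings tried. It also passed without WT DMSO library C (−0.42, adjusted p = 0.0114), KO DMSO library A (−0.38, 0.0257) or KO etoposide library C (−0.39, 0.0378). ATRIP, which carries ATR to RPA-coated DNA, was called in none of the 9 comparisons, and its genotype difference was −0.01 (SE 0.0808, adjusted p = 0.978). Its summed guides lay between 39.5 and 49.1 CPM in all 18 libraries.

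Of the mediator and the effectors, PKMYT1 was called lower in all 4 comparisons with T0. Its summed guides were at 51.3, 52.5 and 50 CPM at WT T0, at 39.3, 42.8 and 35.8 in WT DMSO, and at 41.0, 42.4 and 42.5 in WT etoposide. In KO cells they were at 58.0, 54.6 and 56.7, at 40.8, 44.6 and 40.8, and at 42.05, 39.2 and 44.0. Every 96 h library lay below every T0 library of its genotype, and DMSO and etoposide overlapped in both.

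The change of PKMYT1 from T0 to DMSO was −0.39 in WT cells (SE 0.0571, adjusted p = 1.73e-07) and −0.42 in KO cells (SE 0.0565, adjusted p = 3.11e-08), with 6 of 6 guides lower in both. From T0 to etoposide it was −0.29 in WT cells (SE 0.0571, adjusted p = 0.000764) and −0.43 in KO cells (SE 0.0572, adjusted p = 1.06e-07). These 4 calls held without any 1 of the libraries compared. Etoposide against DMSO was at 0.10 in WT cells (adjusted p = 0.502) and at −0.01 in KO cells (adjusted p = 0.959). PKMYT1 was thus the 1 gene of the 10 called in WT etoposide against T0, where 0.787% of all genes were called lower.

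CHEK1, the effector kinase downstream of ATR, fell from T0 to DMSO in KO cells (−0.20, SE 0.0583, adjusted p = 0.0375). In WT cells it was at −0.17 (SE 0.0591, adjusted p = 0.076) with 6 of 6 guides lower, and was called with DESeq2 (0.0482), limma on guide means (−0.24, 0.0193) and scaling to non-targeting guides (−0.23, 0.00263). Its fall from T0 to etoposide in KO cells was −0.22 (SE 0.059, adjusted p = 0.0372). The growth call in KO cells was lost without any 1 of 4 libraries (T0 B or C, DMSO A or B; adjusted p from 0.0823 to 0.187), and so was the etoposide call (T0 B or C, etoposide A or C; 0.145 to 0.288). With limma on guide means neither was called (0.169 and 0.255). With etoposide against DMSO, CHEK1 was at 0.11 in WT cells (adjusted p = 0.446) and at −0.02 in KO cells (adjusted p = 0.896). CLSPN, the adaptor between ATR and CHK1, was called in none of the 9 comparisons. Its guides did not move alike: with etoposide in WT cells they ran from −0.27 (HGLibB_10120) to 0.54 (HGLibB_10121).

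**Figure D3:**
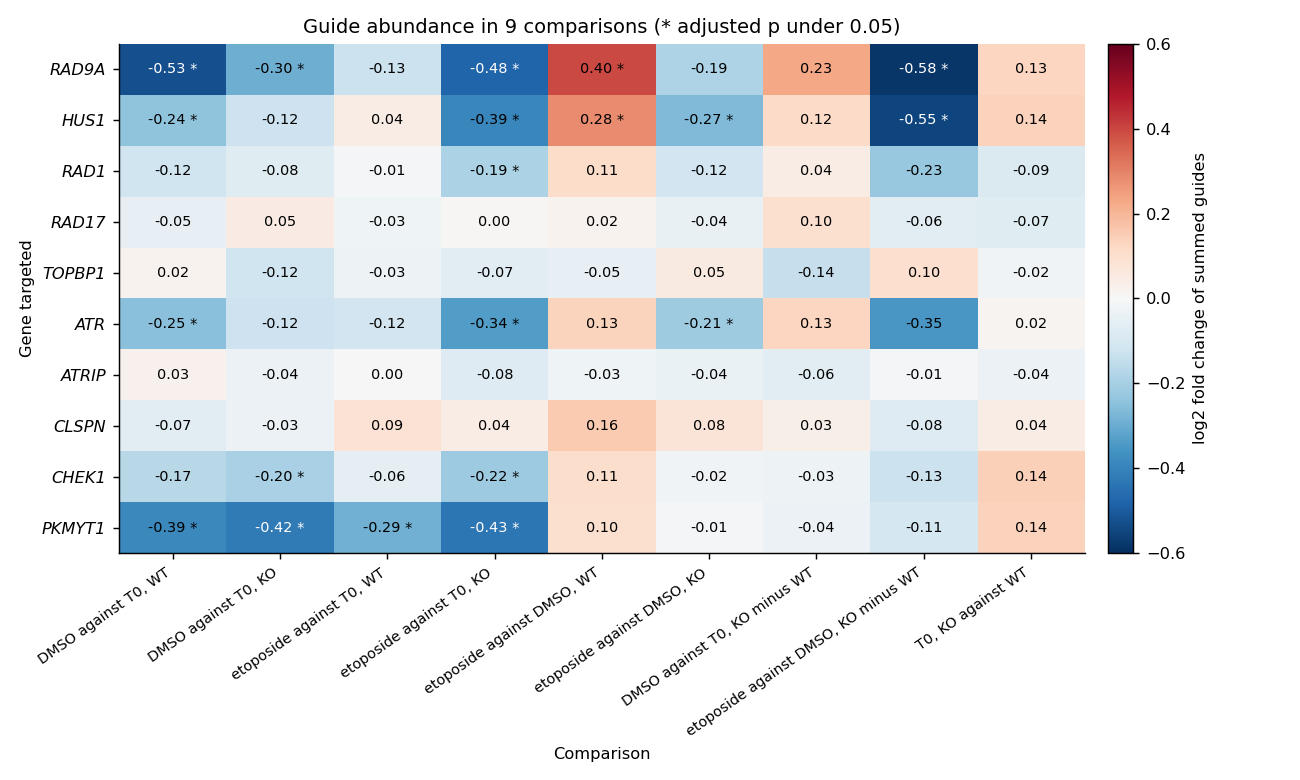
Log2 fold change of the summed guides (colour and printed value) of each gene (rows) in the 9 screen comparisons (columns); an asterisk marks an adjusted p under 0.05. Called falls are most numerous for etoposide against T0 in KO cells (6), followed by DMSO against T0 in WT (4) and KO cells (3). The 2 called genotype differences are those of RAD9A and HUS1.

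The 10 genes were chosen with earlier results of these data known, so the shares below are descriptions. Counted over the 10 genes, 4 fell from T0 to DMSO in WT cells (RAD9A, PKMYT1, ATR and HUS1), where 5.42% of all genes were called lower. In KO cells 3 fell (PKMYT1, RAD9A and CHEK1), where 2.99% were called lower. From T0 to etoposide 6 fell in KO cells (PKMYT1, RAD9A, HUS1, ATR, RAD1 and CHEK1), where 0.74% of all genes were called lower. The median change of the 10 in that comparison was −0.20 on the log2 scale, against 0.00 over all genes. With etoposide against DMSO, 2 rose in WT cells (RAD9A and HUS1; 1.89% of all genes were called higher) and 2 fell in KO cells (HUS1 and ATR; 1.23% were called lower). None of the 10 differed between the genotypes in growth without drug by edgeR, where 0.00525% of all genes were called in either direction, and DESeq2 called 0. In that edgeR fit 1 of the 10, RAD9A, had an unadjusted p under 0.05, with a difference of 0.23 (KO minus WT). Its genotype difference with etoposide (−0.58) shares those DMSO libraries, so this DMSO difference enters it with the opposite sign. At T0, KO against WT, again 0 of 10 were called by edgeR (4 with an unadjusted p under 0.05, and 0 called by DESeq2), where 4.54% of all genes were called in either direction. Of single guides, 6 of 58 fell in WT growth, where 1.37% of all guides were called lower. In KO growth 5 fell, where 0.555% were called lower, and these belonged to RAD9A, PKMYT1 and CHEK1.

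The other genes of the route, 22 in all, were followed as a list: ETAA1, the RPA and small RFC subunits, the paralogues RAD9B and HUS1B, RHNO1, TIMELESS, TIPIN, WEE1, the CDC25 phosphatases, CDK1, CDK2, TELO2, TTI1 and TTI2. In WT growth 6 of 22 fell, where 5.42% of all genes were called lower. Among them were RFC5, a subunit shared by the clamp loader and the replication factor C complex (−0.46, adjusted p = 5.74e-10), and RPA1, the large RPA subunit (−0.30, adjusted p = 0.00185). CDK1, the mitotic kinase (−0.20), TELO2, which stabilises ATR and related kinases (−0.20), and RPA2 (−0.20) fell less. The median of the list there was −0.10, against −0.14 for the 10 genes and 0.005 over all genes. In KO growth 3 of 22 fell (RFC5 at −0.40, RFC3 at −0.30 and TELO2 at −0.18), where 2.99% of all genes were called lower. With etoposide against DMSO, RFC5 (0.32, adjusted p = 5.63e-05) and RFC3 (0.20, adjusted p = 0.0397) rose in WT cells. In KO cells CDK2, the S phase kinase, fell (−0.22, adjusted p = 0.00765). From T0 to etoposide RFC5 (−0.27) and CDK2 (−0.24) fell in KO cells. In WT cells 0 of 22 were called by edgeR in that comparison (3 with an unadjusted p under 0.05), with RFC5 at −0.14 and CDK2 at −0.13.

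None of the 22 was called for the genotype difference with etoposide by edgeR, and 7 had an unadjusted p under 0.05. The smallest p-values there were those of RPA1 (−0.30, adjusted p = 0.238) and RFC2 (−0.18, adjusted p = 0.364). For the genotype difference in growth edgeR called 0 of 22 (3 with an unadjusted p under 0.05), with RPA1 at 0.33 (adjusted p = 0.318) and CDK1 at 0.15 (adjusted p = 0.61). At T0, WEE1, the nuclear kinase that acts on CDK1, was lower in KO cells (−0.24, adjusted p = 0.0165). Of 10 genes of the parallel ATM branch (among them ATM, CHEK2, RAD50, NBN and MDC1), 0 were called for the genotype difference with etoposide by edgeR (2 had an unadjusted p under 0.05), and their median was 0.03, against −0.12 for the 10 genes of the ATR arm and 0.00 over all genes. Of the ATM branch, 2 fell in WT growth and 1 in KO growth, where 5.42% and 2.99% of all genes were called lower. From T0 to etoposide in KO cells 2 fell, where 0.74% of all genes were called lower. At T0 1 was higher in KO cells, where 458 of 19050 genes were called higher.

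Across the 18 screen libraries, the mean log2 CPM over guides of RAD9A had the widest range of group means of the 10 genes (0.84). Among the genes of the screen whose levels followed it most closely, by Pearson's r over these 18 libraries, were HAUS7 (0.898), FAM50A (0.882), TRNT1 (0.87) and CCDC64B (0.865). Within the 10, RAD9A followed PKMYT1 (0.83), ATR (0.82) and HUS1 (0.75), and stood apart from ATRIP (0.03) and TOPBP1 (−0.06). These are descriptions over libraries that share groups and depth.

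The RNA libraries show how the same 10 genes were expressed in p53 WT cells given conditioned medium. Per length, as RPKM (CPM per kilobase of gene) with the gene lengths of the deposited table, the order of mean levels over 10 libraries was PKMYT1 (45.1), TOPBP1 (23.1), RAD9A (12.2), RAD1 (9.36), RAD17 (7.90), ATRIP (6.91), CLSPN (5.74), CHEK1 (5.63), HUS1 (5.23) and ATR (1.83). Neighbours from RAD9A down to HUS1 had overlapping ranges over the libraries. PKMYT1 (42.02 to 46.9), TOPBP1 (20.9 to 26.4) and ATR (1.51 to 2.10) did not overlap their neighbours.

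CHEK1 and RAD9A transcripts were lower in medium from etoposide-treated cells than in DMSO medium, for both genotypes of the conditioning cells. CHEK1 was at 31.3 and 32.2 CPM in libraries A and B of WT DMSO medium and at 24.3 and 25.6 in WT etoposide medium. At T0 it was at 26.6 and 30.5. With KO medium it was at 32.4 and 27.8 in DMSO and at 21.6 and 23.2 in etoposide, so that the groups did not overlap for either medium. The change was −0.35 for WT medium (SE 0.1, adjusted p = 0.0116) and −0.43 for KO medium (SE 0.101, adjusted p = 0.00255). The WT medium call was lost without DMSO library B (adjusted p = 0.0767) or etoposide library A (0.0907). In bulk RNA, fewer cells that express a gene and less of its RNA per cell cannot be told apart. The DMSO libraries are shared with the comparison against T0, so a high DMSO value lowers one change and raises the other. Etoposide media were not tested against T0.

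RAD9A was at 24.3 and 25.6 CPM at T0. It was at 31.9 and 35.2 in WT DMSO medium and at 29.1 and 26.9 in WT etoposide medium. It was at 32.8 and 31.6 in KO DMSO medium and at 20.2 and 23.6 in KO etoposide medium, the lowest 2 of the 10 libraries. The fall was −0.56 for KO medium (SE 0.0983, adjusted p = 0.000183) and held without any 1 library. For WT medium it was −0.26 (SE 0.0959, adjusted p = 0.0435) and was lost without any 1 of the 4 libraries (adjusted p from 0.0541 to 0.286), with DESeq2 (0.102) and with upper-quartile scaling (0.0964). Between the 2 etoposide media RAD9A was lower with KO medium (−0.36, SE 0.0994, adjusted p = 0.0227), where 5.57% of all genes were called lower. That call was lost without KO library A (adjusted p = 0.227), WT library A (0.167) or WT library B (0.059). The authors' deposited table gives RAD9A a log2 fold change of −0.36 (adjusted p = 0.0356) for this comparison. Whether the response to etoposide medium itself differed between KO and WT media was tested as a difference of differences, which was −0.30 for RAD9A (SE 0.137, adjusted p = 0.246) and did not pass.

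TOPBP1 and ATRIP were called with WT etoposide medium and missed the threshold with KO medium. TOPBP1 was at 141 and 140 CPM in WT DMSO medium and at 112 and 114 in WT etoposide medium, a fall of −0.32 (SE 0.0677, adjusted p = 0.0012) that held without any 1 library. At T0 it was at 115 and 119. With KO medium it was at 127 and 130 in DMSO and at 120 and 116 in etoposide (−0.12, adjusted p = 0.184). The difference between the media was 0.20 (SE 0.0957, adjusted p = 0.265), so the 2 responses were not shown to differ. ATRIP was at 20.3 and 20.1 CPM in WT DMSO medium and at 24.4 and 26.5 in WT etoposide medium, a rise of 0.34 (SE 0.106, adjusted p = 0.0198). It was lost without DMSO library A (adjusted p = 0.087), DMSO library B (0.0961) or etoposide library B (0.147), and with DESeq2 (0.0502). With KO medium ATRIP was at 0.07 (adjusted p = 0.64), and the difference between the media was −0.27 (adjusted p = 0.356).

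The other 6 transcripts were not called with either etoposide medium. HUS1 lay between 14.7 and 18.4 CPM in all 10 libraries, and was at 0.05 for WT medium (adjusted p = 0.771) and at 0.00 for KO medium (adjusted p = 0.991). RAD1 was at 0.21 for WT medium (adjusted p = 0.0698) and at 0.22 for KO medium (adjusted p = 0.0583), with no overlap between DMSO and etoposide in either, and the latter passed without KO DMSO library A (0.28, adjusted p = 0.0224). The former passed with upper-quartile scaling (0.0302) and when only the groups compared were fitted (0.0389). ATR was at −0.06 and 0.22, RAD17 at −0.08 and −0.05, CLSPN at 0.02 and −0.07, and PKMYT1 at 0.06 and −0.06 for WT and KO media, with adjusted p-values from 0.118 to 0.864. In all, 4 of 10 were called with WT etoposide medium in either direction, against 34.6% of all genes. With KO etoposide medium 2 of 10 were called lower, against 18.4%, and both shares are near those of all genes.

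**Figure D4:**
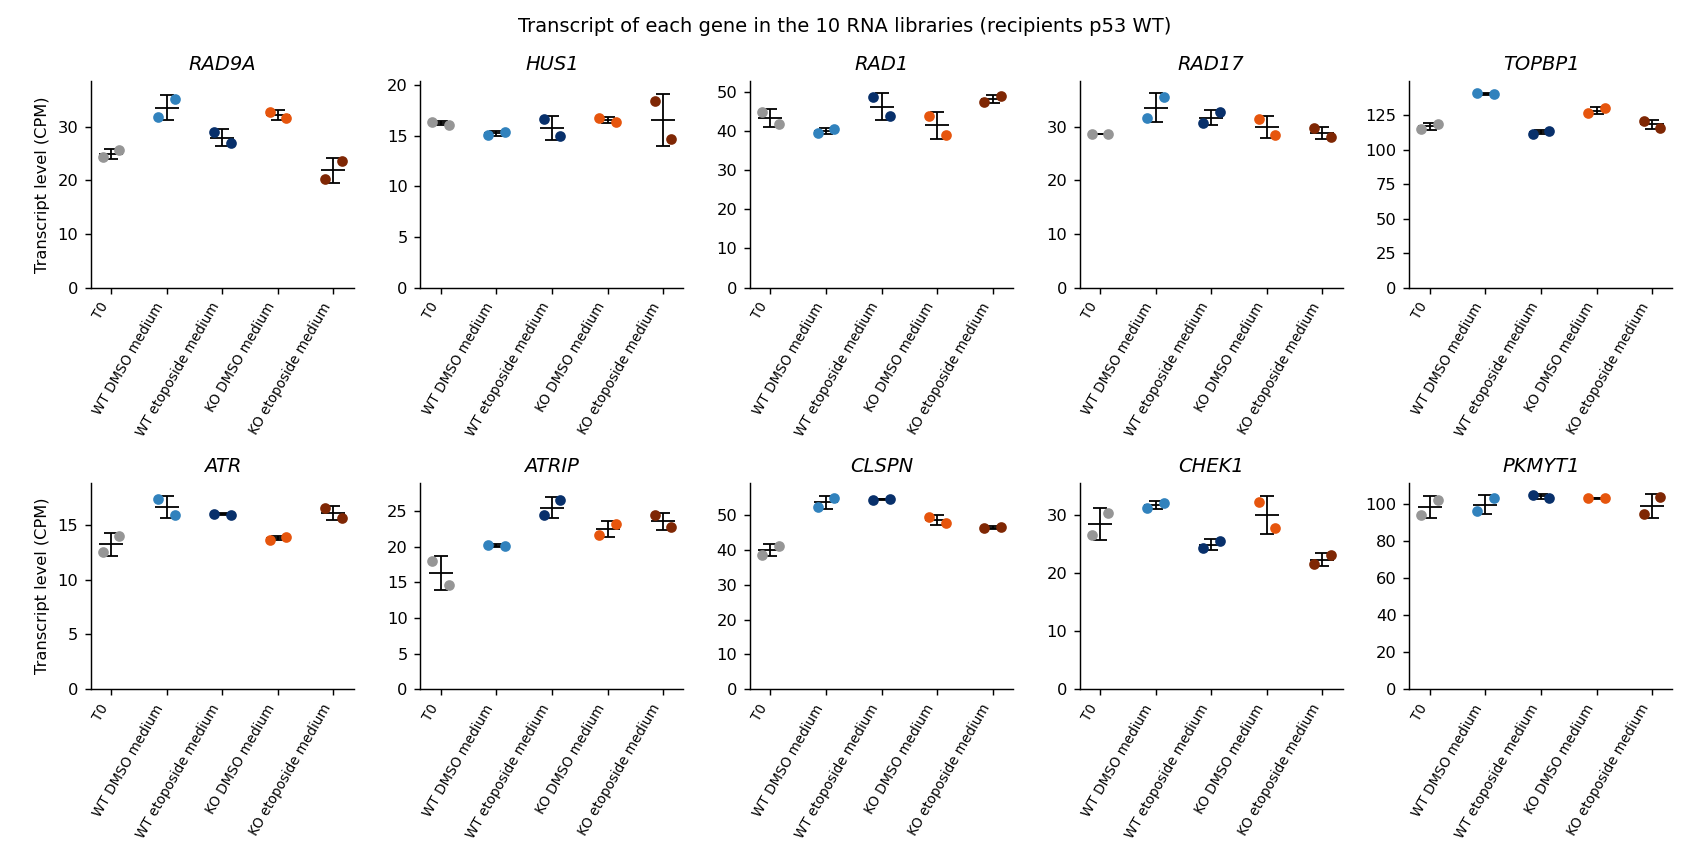
Transcript level of each of the 10 genes in CPM (vertical axis, from 0) in the 10 RNA libraries, by group; points are libraries, bars the mean and SD of 2 libraries. RAD9A and CHEK1 are lower in both etoposide media than in the matching DMSO media, and TOPBP1 is at 141 and 140 CPM in WT DMSO medium against 112 and 114 in WT etoposide medium.

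Several of the transcripts were higher after 8 h in DMSO-conditioned medium than at T0, whose libraries both comparisons share. Time, the change of medium and its conditioning cannot be told apart here. With WT DMSO medium 5 of 10 were higher, where 17.8% of all genes were called higher: CLSPN (0.43, SE 0.0785, adjusted p = 0.000312), RAD9A (0.43, SE 0.097, adjusted p = 0.0021), ATR (0.33, SE 0.11, adjusted p = 0.0239), ATRIP (0.31, SE 0.111, adjusted p = 0.0377) and TOPBP1 (0.26, SE 0.0677, adjusted p = 0.00491). With KO DMSO medium 3 of 10 were higher, where 18.1% of all genes were called higher: ATRIP (0.46, SE 0.11, adjusted p = 0.00293), RAD9A (0.37, SE 0.0975, adjusted p = 0.00643) and CLSPN (0.28, SE 0.079, adjusted p = 0.00885). CLSPN, for instance, was at 38.7 and 41.2 CPM at T0, at 52.4 and 55.1 in WT DMSO medium and at 49.5 and 47.6 in KO DMSO medium. The T0 libraries weighed on these calls: without T0 library A those of ATR (adjusted p = 0.208) and TOPBP1 (0.0704) with WT medium and of RAD9A (0.0703) and CLSPN (0.105) with KO medium were lost, and without T0 library B those of ATRIP with both media (0.399 and 0.0851). Without WT DMSO library A, those of ATR (0.162) and ATRIP (0.132) were lost, and without WT DMSO library B that of ATRIP (0.116). DESeq2 did not call ATR (0.0822) or ATRIP (0.0898) with WT medium. The 2 DMSO media differed in 0 of the 10 genes by edgeR (1 with an unadjusted p under 0.05, and 0 called by DESeq2), where 1.56% of all genes were called in either direction. The spread between the 2 libraries of KO DMSO medium was the widest of the RNA groups. Its chi-square per degree of freedom, a measure of spread against that of counting, was 13.7, against 1.96 to 5.39 in the others. All comparisons with KO DMSO medium rest on this pair. The difference of differences was called for 0 of 10 by edgeR (1 with an unadjusted p under 0.05, and 0 by DESeq2), where 2.12% were called.

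Among the 22 other genes of the route, 20 passed the RNA filter, RAD9B and HUS1B being the exceptions. Of the 20, 6 fell and 0 rose with WT etoposide medium, where 2854 of all 15391 genes were called lower and 2472 higher. The mitotic phosphatases CDC25C (−1.66, SE 0.143, adjusted p = 4.17e-08) and CDC25B (−1.07, SE 0.0661, adjusted p = 4.26e-10) fell by more than any of the 10 genes. They were followed by WEE1 (−0.84), RHNO1, which binds the 9-1-1 clamp (−0.49), and CDK1 (−0.33). With KO etoposide medium 7 fell and 1 rose, where 2831 of all genes were called lower and 2897 higher. CDC25C (−1.83), WEE1 (−1.003), CDC25B (−0.99) and CDK1 (−0.52) fell again, and CDK2 rose (0.36, adjusted p = 0.000558). The medians of the list were −0.06 for WT medium and −0.18 for KO medium, against 0.01 and −0.01 over all genes, and those of the 10 genes were −0.02 and −0.06. Between the 2 etoposide media RFC4 (−0.35) and WEE1 (−0.28) were lower and CDK2 (0.26) higher with KO medium. Of all genes, 858 were called lower and 1308 higher there. Between the DMSO media 0 of 20 were called by edgeR (1 with an unadjusted p under 0.05), with TIPIN at 0.30 and CDC25C at −0.26. The difference of differences was called for 0 of 20 (3 with an unadjusted p under 0.05), with CDK2 at 0.38 (adjusted p = 0.0537) and TELO2 at −0.35 (adjusted p = 0.133). Over T0, 7 of 20 were higher and 1 lower with either DMSO medium. Of all genes, 2737 and 2786 were called higher and 2710 and 2882 lower with WT and KO medium. The list was led by CDC25C (0.98 with WT medium and 0.71 with KO medium), CDC25B (0.43 and 0.34) and RHNO1 (0.49 and 0.41). In the ATM branch list 6 of 10 were called with WT etoposide medium, 2 higher and 4 lower, and the same numbers with KO medium. Over all 15391 genes 2472 were called higher and 2854 lower with WT etoposide medium, and 2897 and 2831 with KO medium. CDKN1A, the p53 target that halts the cycle, rose by 2.01 and 2.35 in the 2 etoposide media, and TOP2A, a proliferation gene and the target of etoposide, fell by 0.94 and 0.98; their part in the changes of the 10 genes was not tested.

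ATRIP had the widest range of group means among the 10 transcripts (0.65 on the log2 scale). The 5 transcripts that followed it most closely over the 10 libraries were PCED1B (r = 0.967), SAFB2 (0.964), MTA2 (0.956), IMMT (0.955) and HNRNPA1L2 (0.951). Among the 10 genes the closest pair was CHEK1 and RAD9A (r = 0.8). Some of the genes share their locus with another gene, and whether counting used strand is not given in the sources used here. ATRIP overlaps TREX1, which was at 0.23 with WT etoposide medium (adjusted p = 0.116). RAD9A overlaps PPP1CA, which was at 0.06 and 0.02 with the WT and KO etoposide media (adjusted p = 0.554 and 0.866). PKMYT1 overlaps PAQR4, which fell with both (−0.61 and −0.57), whereas PKMYT1 itself was not called. RAD17 overlaps TAF9 and AK6, RAD1 overlaps TTC23L, and CHEK1 overlaps ACRV1, so their counts are uncertain to that extent.

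The start regions of RAD9A, CHEK1 and TOPBP1 are shown because these are the 3 transcripts called lower in WT etoposide medium. Each runs from 250 bases before to 50 bases after the RefSeq start of the gene in GRCh38.p14, read 5′ to 3′ on the strand of the gene: chr11:67391736-67392035 on the plus strand for RAD9A, chr11:125625979-125626278 on the plus strand for CHEK1 (the first of 3 listed starts) and chr3:133661892-133662191 on the minus strand for TOPBP1. Capitals mark CCAAT (on either strand, so ATTGG in CHEK1) in the first 2, and an E2F-type match in TOPBP1.
RAD9A: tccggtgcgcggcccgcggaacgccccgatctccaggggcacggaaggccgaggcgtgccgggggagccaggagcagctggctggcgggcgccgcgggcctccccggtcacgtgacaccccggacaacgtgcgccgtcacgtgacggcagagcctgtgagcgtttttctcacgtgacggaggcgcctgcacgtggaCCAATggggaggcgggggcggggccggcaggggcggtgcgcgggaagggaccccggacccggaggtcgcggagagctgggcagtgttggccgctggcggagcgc
CHEK1: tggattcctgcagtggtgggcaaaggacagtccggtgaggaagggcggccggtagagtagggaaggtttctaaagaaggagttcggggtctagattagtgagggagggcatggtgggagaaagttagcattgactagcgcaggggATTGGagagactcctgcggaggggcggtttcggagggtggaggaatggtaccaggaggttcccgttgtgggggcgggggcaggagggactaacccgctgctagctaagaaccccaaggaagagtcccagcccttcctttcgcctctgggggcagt
TOPBP1: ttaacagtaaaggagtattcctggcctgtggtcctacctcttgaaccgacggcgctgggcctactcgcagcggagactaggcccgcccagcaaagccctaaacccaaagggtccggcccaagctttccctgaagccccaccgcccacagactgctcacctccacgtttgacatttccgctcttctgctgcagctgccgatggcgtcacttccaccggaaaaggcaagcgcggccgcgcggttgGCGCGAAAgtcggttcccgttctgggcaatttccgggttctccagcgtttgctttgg
The letters searched, on both strands, were CCAAT and the E2F forms TTTCCCGC, TTTCGCGC, TTTGCCGC and TTTGGCGC, which do not overlap CCAAT. Of the 10 genes, 8 had a listed promoter. CCAAT was found in 4 of these 8 (RAD9A, CHEK1, ATRIP and CLSPN) and in 35.7% of 27305 promoters of the same length. An E2F form was found in TOPBP1 and CLSPN, and in 3.33% of all promoters. A match is a description of the letters in this window.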

How the data were processed

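The authors deposited raw read counts per guide for 18 screen libraries (lowest mean of a listed guide, 62.6 counts) and raw read counts per gene symbol for 10 RNA libraries, with gene lengths. The submitters' processing notes name Bowtie2, DESeq2 and the hg19 build; for the RNA, aligner, annotation and strand setting are not stated there. The authors' deposited table for the 2 etoposide media holds a mean normalized signal, log2 fold changes with their errors, a test score and p-values, and was used only where named.

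Guide counts were summed per gene and scaled by TMM, low RNA counts were removed with filterByExpr, and each table was fitted whole with edgeR 4.0.16 quasi-likelihood tests (R 4.3.3), with 12 residual degrees of freedom for the screen and 5 for the RNA. P-values were adjusted by Benjamini-Hochberg over all features of the table and called at 0.05. Single guides were fitted likewise, with the 999 non-targeting guides. DESeq2 1.42.0, limma 3.58.1 on guide means and medians, other scalings, no filter, only the groups compared, a replicate block and each library left out were the alternatives. Correlations used log2 CPM with a prior count of 2. In the RNA file, 48 symbols that a spreadsheet had turned into currency amounts were restored. The fits were tested on simulated data.

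The 10 genes are always named. Of the 22 other genes of the route, up to 5 called ones with the smallest p were named per comparison, or 2 where none was called. For guides, the lowest and highest of a gene were named, and guide HGLibA_40108 for the difference. The genes and lists were chosen with earlier results of these data known. Promoter sequences and overlapping genes are from RefSeq. Some results that this rule would name are not reported here.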

Additional observations from a re-analysis of the deposited data

Results flagged for a closer look

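The response of RAD9A guides to etoposide differed between the genotypes by a test of the difference itself, −0.58 on the log2 scale (KO minus WT, SE 0.101, edgeR adjusted p = 0.000665), with all 5 guides negative. For HUS1 the same test gave −0.55 (SE 0.0988, edgeR adjusted p = 0.00126), with 5 of 6 guides negative.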

How the results depend on the processing

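Of 110 alternative fits of the 20 counts of called genes or guides, 94 stayed within 1.5 times the reported count, counts of 0 that stayed 0 included. In the screen all 19050 genes passed the filter, so the fits with no filter equal the main fit there and could not move. With limma on guide medians 0 of the 10 genes were called in growth and in etoposide against DMSO or T0 in either genotype, and 0 in the genotype difference with etoposide. Over all 19050 genes that test called 38 higher and 420 lower in WT growth, and 7 and 138 in KO growth. With etoposide against DMSO it called 119 higher and 13 lower in WT cells, and 173 and 26 in KO cells. Against T0 it called 0 and 26 in WT etoposide, and 3 and 13 in KO etoposide. For the genotype difference with etoposide it called 0 of all genes. Scaling to non-targeting guides called 5 genes in KO growth, 2 at T0 and 2 guides with etoposide in WT cells. Over all genes it called 14 higher and 1572 lower in KO growth, against 83 and 569 in the main fit. At T0 it called 1961 and 155, against 458 and 407. Of all guides it called 727 higher and 17 lower with etoposide in WT cells, against 373 and 34. Fitting only the groups compared called 2 at T0, 1 with etoposide in KO cells and 2 between the etoposide media, where upper-quartile scaling also called 2. Over all genes that fit called 1056 higher and 1009 lower at T0. With etoposide in KO cells it called 419 and 85, against 570 and 235 in the main fit. Between the etoposide media it called 1745 and 1161, and upper-quartile scaling 813 and 1484, against 1308 and 858. DESeq2 called 2 transcripts with WT etoposide medium and 3 with WT DMSO medium over T0. Over all genes it called 1860 higher and 2398 lower with WT etoposide medium, against 2472 and 2854 in the main fit. With WT DMSO medium over T0 it called 2240 and 2151, against 2737 and 2710. No called change turned its sign in 407 fits.

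With each screen library left out in turn, called genes of the 10 were 3 to 5 in WT growth and 2 to 3 in KO growth. With etoposide they were 1 to 2 in WT cells and 0 to 2 in KO cells. Of all genes, 761 to 934 were called lower in WT growth and 393 to 493 in KO growth. With etoposide 235 to 367 were called higher in WT cells and 118 to 181 lower in KO cells. Against T0, 1 to 1 of the 10 were called in WT etoposide and 4 to 6 in KO etoposide. Of all genes 68 to 93 and 73 to 95 were called lower there. For the genotype difference with etoposide 2 to 3 were called, where 3 to 13 of all genes were called lower. In growth that difference was called for 0 to 0, where 0 to 4 of all genes were called higher and 0 to 2 lower. At T0 0 to 0 were called, where 177 to 223 of all genes were called higher and 151 to 186 lower. Called guides were 3 to 6 and 2 to 6 in WT and KO growth, and 1 to 1 and 0 to 1 with etoposide. Of all guides, 928 to 1263 and 320 to 486 were called lower in WT and KO growth. With etoposide 181 to 303 were called higher in WT cells, and 421 to 608 higher and 90 to 222 lower in KO cells. Leaving out an RNA library left 1 in its group, so effect sizes are given in place of counts. With WT etoposide medium TOPBP1 ran from −0.333 to −0.304, CHEK1 from −0.384 to −0.307, RAD9A from −0.33 to −0.185 and ATRIP from 0.275 to 0.395. With KO etoposide medium CHEK1 ran from −0.532 to −0.339 and RAD9A from −0.673 to −0.46.

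Libraries of the same letter deviated together little (median r 0.013 in both tables, with 4 of 45 screen pairs and 4 of 20 RNA pairs over 0.1), so the letters were not taken as pairs. Of pairs with unlike letters, 1 of 90 in the screen and 4 of 20 in the RNA were over 0.1. The 4 screen pairs of the same letter all lay within KO cells. For letters A, B and C, KO T0 with KO DMSO had r of 0.104, 0.064 and 0.175, and KO DMSO with KO etoposide 0.101, −0.049 and −0.035. With the replicate block, 3 genes were called for the genotype difference with etoposide, ATR joining at −0.35 (edgeR adjusted p = 0.0443). Scaling to non-targeting guides moved the share of higher calls among all called genes from 17.2% to 0.622% in WT growth, from 12.7% to 0.883% in KO growth and from 52.9% to 92.7% at T0. For etoposide it moved from 86.5% to 98.3% in WT cells, from 70.8% to 88.6% in KO cells and from 33.8% to 9.94% in KO cells against T0. For the genotype difference with etoposide it moved from 50% to 21.1%. Upper-quartile scaling moved it from 60.4% to 35.4% between the etoposide media and from 70.9% to 36.4% for the difference of differences, and DESeq2 from 50.8% to 66.6% between the DMSO media. The cause of these shifts was not tested.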
